A study of Mus musculus with 29 samples.

Results

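Mitosis and cytokinesis genes are described here, 35 genes that drive a cell from the entry into mitosis to the separation of its daughters. They were chosen by name, as the rows whose Ensembl identifier carries 1 of 35 listed symbols, and all 35 were found among the 38924 genes of the LSK table and among the 18194 genes of the niche table. LSK cells are blood stem and progenitor cells sorted as negative for lineage markers and positive for Sca-1 and Kit, and here they were taken after transplantation into mice whose bone marrow environment, the niche, was wild type (WT, 6 libraries) or Wnt5a-haploinsufficient (labelled Wnt5a, 5 libraries). Endothelial (EC), osteoblastic (OBC) and mesenchymal (MSC) niche cells were profiled from both genotypes, with 3 libraries per population and genotype, which makes 29 libraries in 8 groups. All libraries carry the strain label 129Ly5.1, and the haploinsufficiency lies in the niche genotype and not in a treatment. Age, sex, time after transplantation, pooling of animals and the origin of the replicates are not stated in the labels, so p-values measure the spread between these libraries, which may in part be technical.

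Entry into mitosis is driven by CDK1 bound to cyclin B, helped by the kinases PLK1 and Aurora A. The spindle checkpoint holds cells in metaphase until every kinetochore is attached, after which CDC20 activates the ubiquitin ligase that triggers anaphase. The chromosomal passenger complex corrects attachments and then moves to the central spindle, where centralspindlin (RACGAP1 with KIF23) recruits ECT2, the exchange factor that activates the GTPase RhoA and so builds the contractile ring. Blood stem cells are mostly quiescent at rest and divide when they rebuild marrow after transplantation, and transcripts of these genes accumulate in late S, G2 and M phase, so that in bulk RNA they follow the share of cycling cells. In sorted bulk samples, fewer cells in mitosis and less RNA per cell cannot be told apart.

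Promoters of such genes are known for a pair of elements, the cell cycle genes homology region (CHR, TTTGAA), bound by the MuvB complexes that repress these genes in quiescence and activate them in G2, and the CCAAT box, bound by NF-Y. RefSeq promoter windows (GRCm38.p6, 250 bases before to 50 bases after a start) were found for 30 of the 35 members, as 32 windows; Incenp, Ccna2, Kif20a, Tpx2 and Aurkb had none. TTTGAA on either strand was present in 81.25% of the member windows and in 17.9% of all 32851 windows. CCAAT was present in 78.1% and 37.4%, and both in 68.75% and 6.95%. In 10 lists of related genes, described below, TTTGAA was in 4.76% (G1 cyclins and inhibitors) to 63.6% (spindle checkpoint) of windows. It was in 15% for mitotic entry, 20% for cytokinesis and 28.1% for kinetochore and centromere. CCAAT was in 28% (cytokinesis) to 71.9% (kinetochore and centromere) of the windows of a list, with 66.7% for spindle and motors. Both elements were in 0% to 45.5% of the windows of a list. In all, 6 motifs were searched on both strands. The longer form TTTGAAT, which contains the CHR, was in 43.75% of member windows and 4.29% of all, and the second form TTCGAA in 9.38% and 1.56%. The E2F site GGCGGGAA was in 0 of 32 member windows and 2.19% of all, and TATAAA in 3.13% and 13.6%. These shares describe letters in a window and not bound sites. The following 8 stretches, each from the last 125 bases before a start and outside annotated exons, are shown because they belong to members described below and hold at least 1 of the elements. Capitals mark the CHR and the CCAAT box on either strand; in the reverse orientation the CHR is spelled TTCAAA and the other element reads ATTGG.
Arhgap11a, chr2:113848662-113848786, minus strand: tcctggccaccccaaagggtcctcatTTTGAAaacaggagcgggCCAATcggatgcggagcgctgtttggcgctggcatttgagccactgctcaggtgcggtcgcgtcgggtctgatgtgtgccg
Ect2, chr3:27153879-27154003, minus strand: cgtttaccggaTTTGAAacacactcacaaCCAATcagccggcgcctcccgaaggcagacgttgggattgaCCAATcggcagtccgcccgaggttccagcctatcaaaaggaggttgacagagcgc
Racgap1, chr15:99651657-99651781, minus strand: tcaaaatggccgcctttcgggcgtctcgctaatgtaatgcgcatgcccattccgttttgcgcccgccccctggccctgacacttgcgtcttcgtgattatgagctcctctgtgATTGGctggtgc
Kif23, chr9:61946800-61946924, minus strand: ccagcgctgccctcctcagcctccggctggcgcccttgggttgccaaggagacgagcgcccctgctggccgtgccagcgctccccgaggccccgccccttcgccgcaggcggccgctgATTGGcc
Top2a, chr11:99024190-99024314, minus strand: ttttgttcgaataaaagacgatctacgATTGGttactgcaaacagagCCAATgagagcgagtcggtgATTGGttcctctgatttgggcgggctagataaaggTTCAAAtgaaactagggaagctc
Cdk1, chr10:69352939-69353037, minus strand: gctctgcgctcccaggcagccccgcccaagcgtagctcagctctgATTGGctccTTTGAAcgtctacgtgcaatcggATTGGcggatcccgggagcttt
Cdc20, chr4:118437353-118437468, minus strand: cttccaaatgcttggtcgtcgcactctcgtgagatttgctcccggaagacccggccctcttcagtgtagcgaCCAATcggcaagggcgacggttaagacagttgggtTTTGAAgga
Mki67, chr7:135716380-135716504, minus strand: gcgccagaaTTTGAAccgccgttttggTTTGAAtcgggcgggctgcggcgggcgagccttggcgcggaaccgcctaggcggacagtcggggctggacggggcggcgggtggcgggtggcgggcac

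In Arhgap11a and Ect2 the CHR lies upstream of a CCAAT box, and Mki67 holds the CHR more than once with no CCAAT box in the stretch. Racgap1 and Kif23 show only the CCAAT box here, because their CHR lies 5 and 2 bases after the start. The first base of each motif was counted from the annotated start.

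The LSK libraries held between 1254553 and 5775459 reads and the niche libraries between 10635 and 117989 UMIs (unique molecular identifiers, which count molecules rather than reads). Levels are given as CPM, counts scaled to the usual common library total after TMM normalisation. The defining markers of the LSK sort were present in all 11 libraries, with Kit at 286 to 564 CPM and Ly6a (Sca-1) at 159 to 690 CPM. Of the 11 osteoblastic markers 5 to 9 were detected in a library, with a sum of 344 to 607 CPM, most of it from Runx2 (188 to 444 CPM) and Alcam (53.3 to 235 CPM), while the defining gene Bglap was at 0 in all libraries. Some libraries of the Wnt5a group lay outside the WT range in transcripts other than these genes, and not the same libraries for each class. Transcripts like the major satellite repeat took 6.12%, 1.63%, 2.75%, 1.16% and 0.31% of reads in Wnt5a replicates 1 to 5, against 0.08% to 0.38% in WT. Mitochondrial genes took 3.35%, 5.89%, 4.09%, 8.96% and 2.54% of reads in the same order, against 1.77% to 3.39% in WT. Wnt5a replicate 1 had 24603 genes detected, against 16583 to 20717 in WT. Wnt5a replicate 5 had 23384 CPM of summed B and plasma cell markers, against 851 to 5389 CPM in the other 10 libraries. The labels number replicates 4 and 5 of Wnt5a with 3 digits and every other LSK library with 4 digits, and what the numbers stand for is not given.

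Mitosis and cytokinesis genes were readily detected in LSK cells of both groups. Together they took 0.365% ± 0.0546 (SD, n = 6, range 0.295% to 0.448%) of reads in WT and 0.394% ± 0.0671 (SD, n = 5, range 0.309% to 0.467%) in Wnt5a, and the ranges overlapped. Per kilobase of annotated exon, averaged over the 11 libraries, the highest levels were those of Ccnb2 at 96.5 CPM, the spindle protein gene Nusap1 at 59.9 CPM, Ccna2 at 46.4 CPM, Top2a at 43.2 CPM and Cdk1 at 37.5 CPM, and the lowest was Kif20a at 1.21 CPM. The step from Ccna2 to Top2a was smaller than the SD of either gene in either group. Within WT, the median coefficient of variation of a member was 21.2%, and within Wnt5a it was 24.6%.

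Of the 34 members that passed the filter on low counts, 0 passed the test between the niche genotypes (edgeR quasi-likelihood, Benjamini-Hochberg adjusted p under 0.05 over 13098 genes), where 0.0229% of all genes tested did (3 genes). Kif20a was under the filter. At an unadjusted p under 0.05, 10 members were reached, all of them higher in Wnt5a, where 10.7% of all genes were reached in that direction. Log2 fold changes (Wnt5a over WT) were positive for 25 members and negative for 9, against 51.7% positive among all genes tested, and their median was 0.29 against 0.02 for all genes. The median of all genes depends on the filter: with no filter on low counts it was 0.32 and that of the members 0.21. No member was higher or lower in every Wnt5a library than in every WT library, as 1.26% (above) and 1.55% (below) of genes were. For 9 members with log2 fold changes from -0.18 to 0.14 the sign changed in at least 1 alternative, namely Bub1, Ttk, Cdca8, Cenpa, Ndc80, Nuf2, Mki67, Nusap1 and Prc1.

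**Figure D1:**
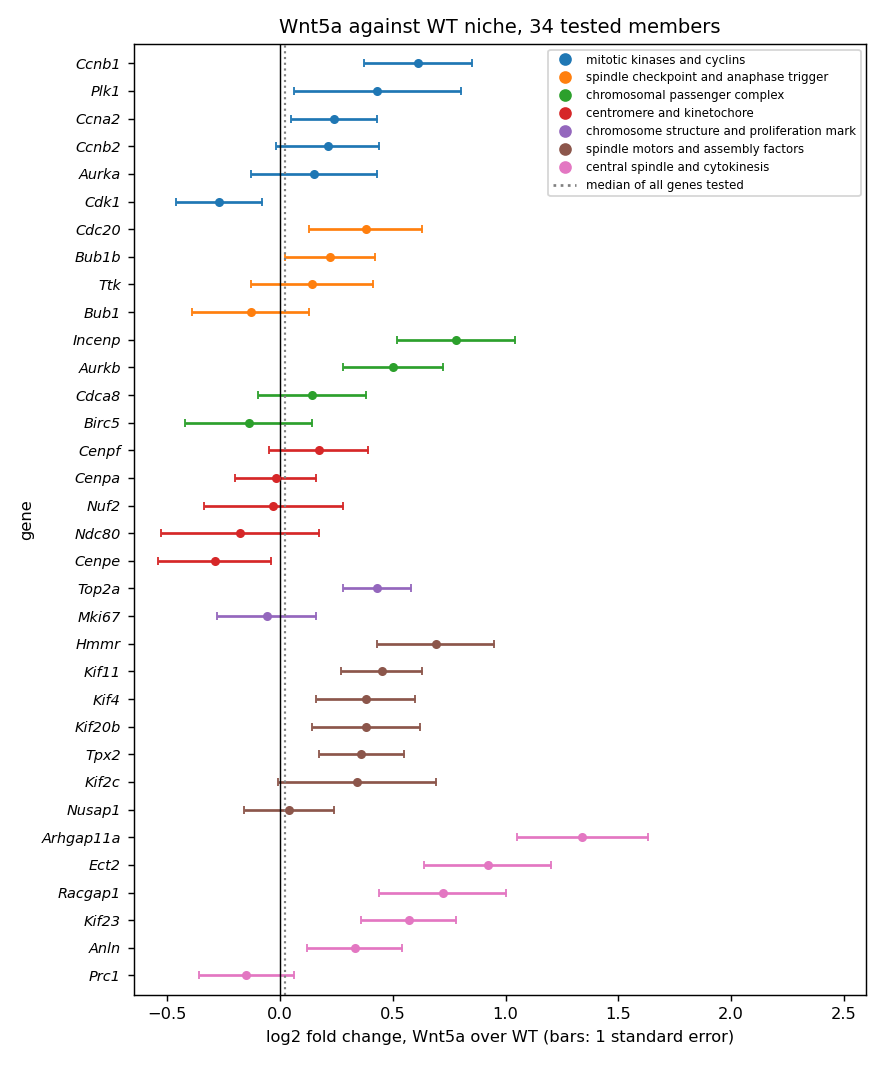
Log2 fold change of each tested member in LSK cells, Wnt5a over WT niche, with bars of 1 standard error and colours for roles. The 4 points farthest to the right are Arhgap11a at 1.34, Ect2 at 0.92, Incenp at 0.78 and Racgap1 at 0.72, and the centromere and kinetochore genes lie around 0.

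Arhgap11a and Ect2, of the central spindle and cytokinesis group, had the highest log2 fold changes among the tested members, followed by Incenp of the chromosomal passenger complex. Of the 7 members of the group, 6 were tested, 5 of them with a positive log2 fold change, and their median was 0.65. The roles were not tested against each other. Arhgap11a (chromosome 2, 113831492 to 113848661), a GTPase-activating protein that switches RhoA off, was at 37.3, 47.4 and 68.0 CPM (lowest, median and highest) in WT and at 170.0, 135, 171, 102 and 50.6 CPM in Wnt5a replicates 1 to 5. Its level in 4 of the 5 Wnt5a libraries was above every WT library, and replicate 5 lay inside the WT range. The log2 fold change was 1.34 (SE 0.29, adjusted p = 0.0564 by edgeR), from 49.9 ± 12.6 CPM (SD, n = 6) to 126 ± 50.7 CPM (SD, n = 5).

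Ect2 (chromosome 3, 27097222 to 27153878) was at 88.0, 125 and 147 CPM in WT and at 160.5, 201, 265, 427 and 107 CPM in Wnt5a replicates 1 to 5. Replicate 4 held the highest level, and replicate 5 again lay inside the WT range. The log2 fold change was 0.92 (SE 0.28, adjusted p = 0.119 by edgeR).

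Racgap1, the GAP subunit of centralspindlin, was at 49.5, 63.0 and 80.4 CPM in WT and at 125, 72.0, 159.8, 122 and 47.1 CPM in Wnt5a. Replicates 2 and 5 of Wnt5a fell in or below the WT range, and the log2 fold change was 0.72 (SE 0.28, adjusted p = 0.191 by edgeR). Kif23, its motor partner, was at 63.6, 74.4 and 105 CPM in WT and at 144, 128, 130.1, 99.3 and 75.5 CPM in Wnt5a, so that replicates 4 and 5 overlapped WT. Its log2 fold change was 0.57 (SE 0.21, adjusted p = 0.184 by edgeR). Both are given in full because they passed the test in an alternative named below.

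Anln, which encodes the ring scaffold anillin, had a log2 fold change of 0.33 (SE 0.21, adjusted p = 0.401 by edgeR). Prc1, the bundler of antiparallel microtubules in the central spindle, was at 83.0, 111 and 144 CPM in WT and at 88.4, 126, 120.4, 73.2 and 89.9 CPM in Wnt5a. The groups overlapped, with a log2 fold change of -0.15 (SE 0.21, adjusted p = 0.742 by edgeR). Kif20a, a motor of the same structure, had 31.9 CPM in WT replicate 4 and at most 4.78 CPM in every other library. It had 0 reads in Wnt5a replicate 3, where 3 reads would be 1.75 CPM.

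**Figure D2:**
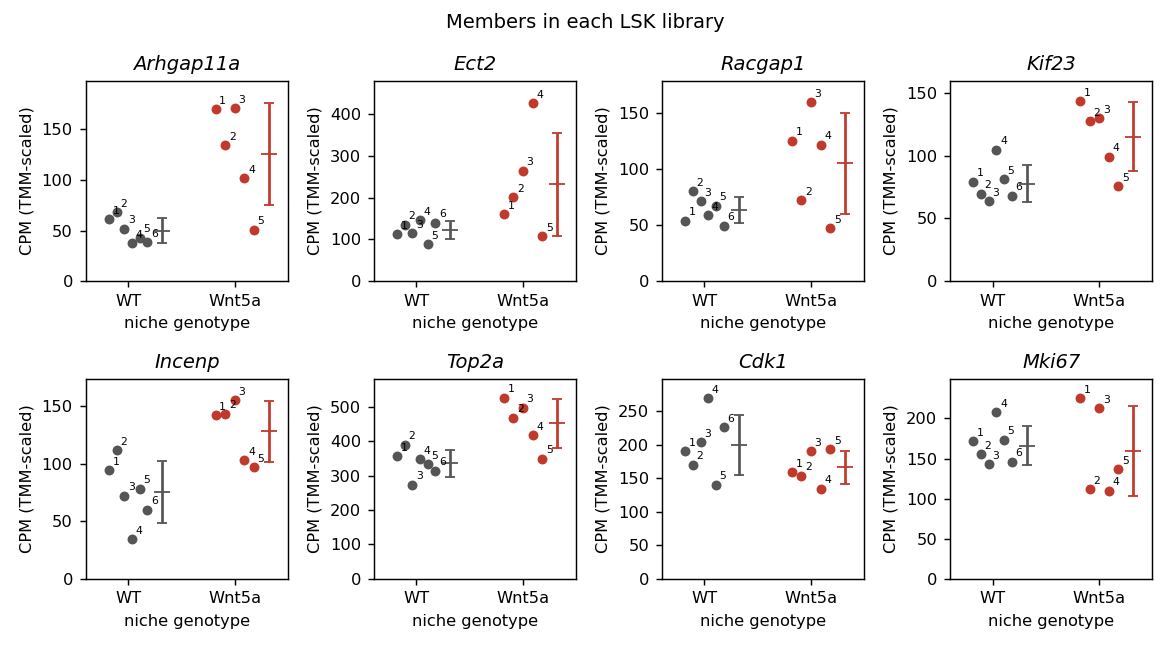
CPM of 8 members in each LSK library, numbered by replicate, with the group mean and SD beside the points. For Arhgap11a and Ect2, Wnt5a replicates 1 to 4 lie above every WT library and replicate 5 among them; for Cdk1 the ranges overlap, and the Mki67 values of Wnt5a lie both above and below those of WT.

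The calls for these genes changed with the settings and with Wnt5a replicate 5. Without that library 5 members passed and were higher in Wnt5a, namely Arhgap11a (log2 fold change 1.54, adjusted p = 0.0033 by edgeR), Ect2 (1.10, adjusted p = 0.0155), Racgap1 (0.91, adjusted p = 0.0301), Kif23 (0.69, adjusted p = 0.0457) and Top2a (0.51, adjusted p = 0.0477), while 4.45% of all genes passed and were higher in Wnt5a. With the 4-digit libraries alone (6 WT, 3 Wnt5a), 4 of these passed, all but Racgap1, beside 3.06% of all genes in that direction. DESeq2 passed Arhgap11a (adjusted p = 0.0016) and Ect2 (adjusted p = 0.0448), beside 3.09% of all genes in that direction, and edgeR with no filter passed the same 2 genes beside 0.681%. With limma voom 0 of 34 members and 0 of 13098 genes passed, and 9 members were under an unadjusted p of 0.05. Satellite-like transcripts, mitochondrial shares and B cell markers differ between replicate 5 and other Wnt5a libraries as given above, and their part in these levels was not tested.

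Of the spindle motors and assembly factors all 7 had a positive log2 fold change, with a median of 0.38, and 2 of them, Hmmr and Kif11, had an unadjusted p under 0.05. Hmmr, a microtubule-binding spindle protein, was at 42.0, 91.3 and 118.2 CPM in WT and at 139, 142, 187, 144 and 88.6 CPM in Wnt5a. Replicates 1 to 4 were above every WT library, and the log2 fold change was 0.69 (SE 0.26, adjusted p = 0.182 by edgeR). Kif11, the motor that pushes the spindle poles apart, had 125 ± 21.5 CPM (SD, n = 6) in WT and 171 ± 24.8 CPM (SD, n = 5) in Wnt5a, a log2 fold change of 0.45 (SE 0.18, adjusted p = 0.196 by edgeR). The chromokinesin Kif4, the motor Kif20b, the spindle assembly factor Tpx2 and the microtubule depolymerase Kif2c had log2 fold changes between 0.34 and 0.38, and Nusap1 0.04.

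Members of the chromosomal passenger complex had log2 fold changes from -0.14 to 0.78. Incenp, its scaffold, was at 34.2, 75.3 and 112 CPM in WT and at 142, 143, 155, 103 and 96.9 CPM in Wnt5a. Replicates 1 to 3 were above every WT library, and the log2 fold change was 0.78 (SE 0.26, adjusted p = 0.145 by edgeR). Aurkb, its kinase, was at 42.0, 70.4 and 92.0 CPM in WT and at 122, 88.7, 101, 100.1 and 89.0 CPM in Wnt5a. All 5 Wnt5a libraries were above the WT median and 3 above the WT maximum (log2 fold change 0.50, SE 0.22, adjusted p = 0.244 by edgeR).

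Birc5 encodes survivin, the subunit that places the complex on chromatin. It was at 70.5, 119 and 190.4 CPM in WT and at 69.7, 109, 95.6, 168 and 139 CPM in Wnt5a. The groups overlapped over nearly their whole range (log2 fold change -0.14, SE 0.28, adjusted p = 0.824 by edgeR). Cdca8, which encodes the subunit borealin, had a log2 fold change of 0.14, and Wnt5a replicate 3 stood at 113 CPM with the next library of its group at 66.6 CPM. None of the 4 passed the test, and differences between the subunits were not tested.

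The kinases and cyclins of mitotic entry had 5 positive log2 fold changes of 6. Ccnb1, cyclin B1, was at 65.7, 125 and 183 CPM in WT and at 198, 201, 168, 200.1 and 134 CPM in Wnt5a. All 5 Wnt5a libraries were above the WT median (log2 fold change 0.61, SE 0.24, adjusted p = 0.197 by edgeR), and the annotated pseudogene Ccnb1-ps drew at most 100 reads in a library. Cdk1 (chromosome 10, 69335146 to 69352938), the kinase it activates, was at 141, 197 and 270.0 CPM in WT and at 159, 154, 191, 134 and 193 CPM in Wnt5a. It was the only member with no Wnt5a library above the WT median, but the ranges overlapped (log2 fold change -0.27, SE 0.19, adjusted p = 0.455 by edgeR).

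Plk1, which promotes entry and exit, was at 12.9, 30.2 and 47.3 CPM in WT and at 61.5, 35.4, 54.5, 34.3 and 20.1 CPM in Wnt5a, with overlapping groups (log2 fold change 0.43, SE 0.37, adjusted p = 0.557 by edgeR). Aurka, the centrosomal Aurora kinase, was at 26.9, 36.3 and 55.2 CPM in WT and at 56.7, 30.3, 44.8, 49.3 and 41.9 CPM in Wnt5a. Only replicate 1 exceeded the WT range (log2 fold change 0.15, SE 0.28, adjusted p = 0.805 by edgeR). Ccna2 and Ccnb2, cyclins A2 and B2, had log2 fold changes of 0.24 and 0.21. The level of Ccnb2 spread less between Wnt5a libraries (coefficient of variation 7.27%) than between WT libraries (38.9%).

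Top2a and Mki67 are both used as marks of dividing cells. Top2a (chromosome 11, 98992943 to 99024189), topoisomerase II alpha, was at 274, 341 and 391 CPM in WT and at 527, 469, 499, 418 and 349.6 CPM in Wnt5a. The level of 4 Wnt5a libraries was above every WT library, and the log2 fold change was 0.43 (SE 0.15, adjusted p = 0.167 by edgeR). Mki67, which encodes the Ki-67 coat of mitotic chromosomes, was at 143, 164 and 208 CPM in WT and at 225, 112, 213, 109.8 and 137 CPM in Wnt5a. Replicates 1 and 3 were above all WT libraries and the other 3 below all of them, so that the mean hides a wide spread (log2 fold change -0.06, SE 0.22, adjusted p = 0.907 by edgeR). The difference between the genes was not tested.

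No checkpoint or kinetochore member passed the test. The checkpoint genes had 3 positive log2 fold changes of 4 and a median of 0.18. Cdc20, the activator of the anaphase-promoting complex, had a log2 fold change of 0.38 with 3 of 5 Wnt5a libraries above the WT maximum. The checkpoint genes Bub1b and Ttk had 0.22 and 0.14, and 0 of 4 reached an unadjusted p under 0.05. Bub1 was at 56.4, 101 and 166 CPM in WT and at 75.1, 91.3, 131, 86.6 and 101 CPM in Wnt5a, within the WT range throughout (log2 fold change -0.13, SE 0.26, adjusted p = 0.826 by edgeR). Of the 5 centromere and kinetochore genes 4 had a negative log2 fold change, and their median was -0.03. Cenpe, a kinetochore motor, was at 49.9, 53.0 and 75.8 CPM in WT and at 64.2, 35.7, 31.5, 55.3 and 50.6 CPM in Wnt5a. Its replicates 2 and 3 were below every WT library (log2 fold change -0.29, SE 0.25, adjusted p = 0.560 by edgeR). The microtubule couplers Ndc80 and Nuf2 had log2 fold changes of -0.18 and -0.03, the centromeric histone gene Cenpa -0.02, and the large coat protein gene Cenpf 0.17.

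**Figure D3:**
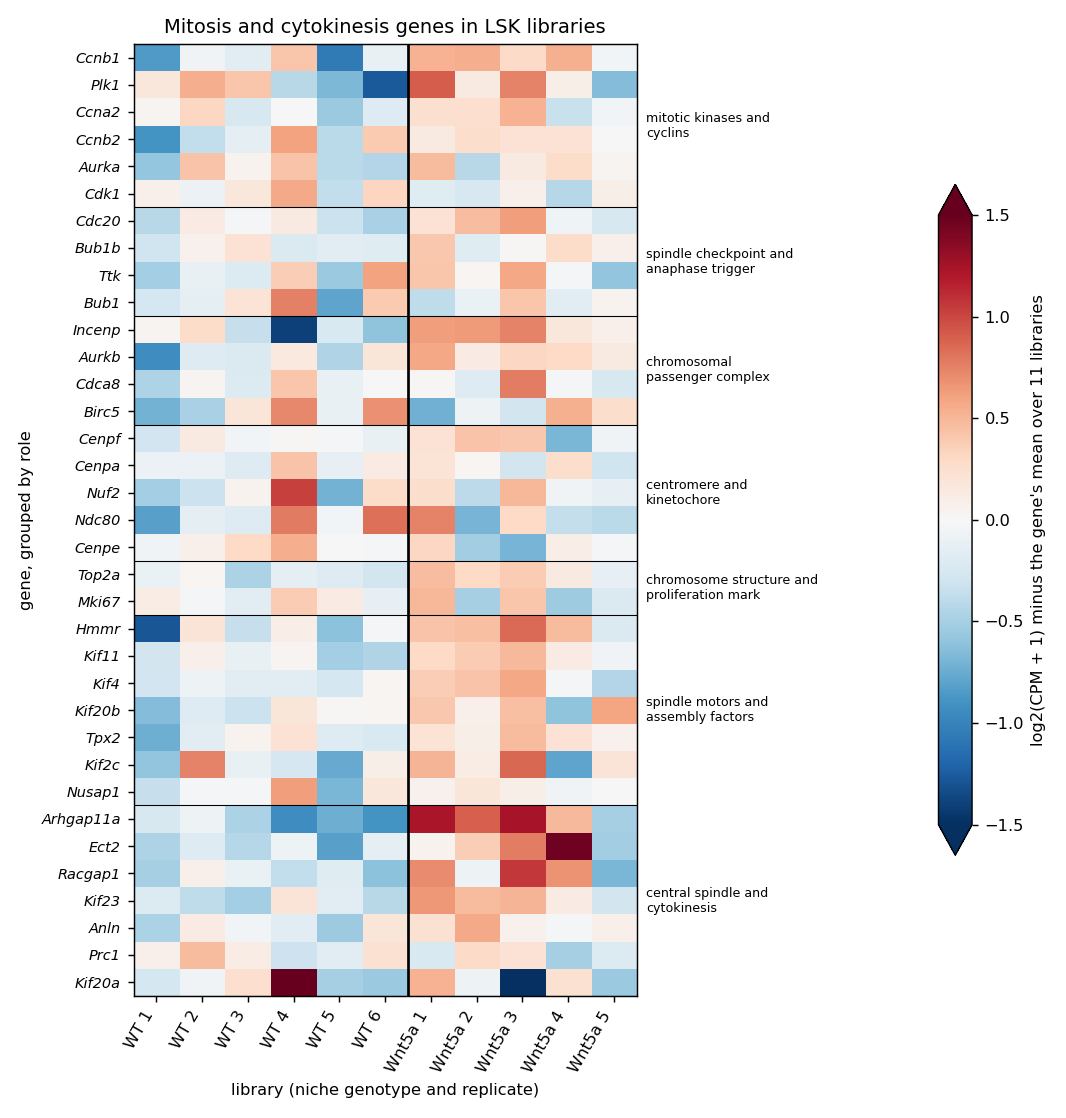
Each row is a member and each column an LSK library, coloured by log2(CPM + 1) minus the mean of the gene over the 11 libraries, with lines between roles and between genotypes. Arhgap11a and Racgap1, in the lowest block, are high in Wnt5a replicates 1 and 3, and the column of WT replicate 4 is high for the kinetochore gene Nuf2 and for Cdk1.

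Single libraries stood out across members. WT replicate 4 held the highest level of 9 members, among them Cdk1, Ccnb2, Bub1, Birc5, Cenpa, Cenpe and Nuf2, and the lowest level of Arhgap11a and Incenp. Wnt5a replicate 3 held the highest level of 11 members and Wnt5a replicate 1 of 7. WT replicates 1 and 5 held the lowest level of 9 and 8 members. These counts are a description, since the members share each library and its depth.

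Genes of the same processes outside the 35 were read from 10 related lists with 250 genes. In none of the lists did a gene pass the test. The cytokinesis and abscission list had 20 of 27 tested genes with a positive log2 fold change and a median of 0.32, and the condensin and cohesin list 15 of 18 and a median of 0.27. Lower medians were those of the spindle checkpoint (4 of 10 positive, -0.11), CDK1 and mitotic entry (6 of 19, -0.06), kinetochore and centromere (14 of 32, -0.05) and G1 cyclins and inhibitors (9 of 19, -0.01). The regulators of mitotic transcription (14 of 26 positive, 0.14), DNA replication (22 of 36, 0.13), spindle and motors (19 of 33, 0.09) and the anaphase-promoting complex (11 of 20, 0.06) lay between. Genes with an unadjusted p under 0.05 numbered 8 of 27 in the cytokinesis list, 7 of 18 in condensin and cohesin, 10 of 33 in the spindle list, 7 of 26 among the regulators and 9 of 36 in DNA replication. In the other lists they numbered 6 of 19 in mitotic entry, 6 of 19 in G1 cyclins and inhibitors, 3 of 10 in the checkpoint, 7 of 32 in the kinetochore and 3 of 20 in the anaphase-promoting complex, where 18.4% of all genes had one.

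Within these lists, the genes with the smallest p went both ways. They were picked by p, so standing apart in 5 of 5 libraries is no separate result. Among all genes tested, 1.26% had every Wnt5a library above WT and 1.55% every one below. For cytokinesis, Iqgap3, an actin-binding scaffold, had 27.0 ± 10.7 CPM (SD, n = 6) in WT and 80.4 ± 52.1 CPM (SD, n = 5) in Wnt5a (log2 fold change 1.56, adjusted p = 0.0904 by edgeR). Gas2l3 had a log2 fold change of 0.67, and Chmp1a, of the membrane-cutting ESCRT machinery, -1.22 with all 5 Wnt5a libraries below WT. For the kinetochore, Cenpc1, which links centromeric chromatin to the kinetochore, had 57.7 ± 7.999 CPM in WT and 109.7 ± 23.8 CPM in Wnt5a, higher in 5 of 5 libraries (log2 fold change 0.92, adjusted p = 0.0608 by edgeR). Ska1, a microtubule coupler, was lower in 5 of 5 libraries (log2 fold change -1.67, adjusted p = 0.0614 by edgeR), and Cenpb was at 1.32. Among spindle genes Fam83d, Spag5 and Troap had log2 fold changes of 1.40, 0.94 and 1.39, with Spag5 higher in 5 of 5 libraries.

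Of mitotic entry genes, the kinase gene Melk and the CDK subunit gene Cks2 had log2 fold changes of 1.18 and 0.81, and Wee1, the kinase that holds CDK1 inactive, -1.74 (adjusted p = 0.138 by edgeR). Of the checkpoint list, Mad1l1 had 0.91 (higher in 5 of 5 libraries), Tpr -0.76 and Zw10 -0.65. Of the anaphase-promoting complex Anapc13 had 0.71, Anapc4 -1.42 and Cdc23 -0.99. The cohesin genes Stag2 and Rad21 had 0.56 and 0.52, and the condensin gene Ncaph2 0.81.

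Among regulators, Myc, a driver of growth and cell cycle genes, had 179.6 ± 22.1 CPM (SD, n = 6) in WT and 393 ± 166 CPM (SD, n = 5) in Wnt5a, higher in 5 of 5 libraries (log2 fold change 1.13, adjusted p = 0.0564 by edgeR). Rbl2, which encodes the pocket protein p130 of the repressing complex at the CHR, had 94.5 ± 13.1 and 38.3 ± 25.2 CPM, lower in 5 of 5 libraries (log2 fold change -1.29, adjusted p = 0.0904 by edgeR). Rbbp4, of the MuvB core, had -1.24. Of G1 genes, the inhibitor gene Cdkn2c had 0.92, the inhibitor gene Cdkn2d -1.11 and the cyclin gene Ccnd3 -1.05, each outside the WT range in 5 of 5 libraries. Replication genes Mcm2 and Rrm2 had 0.62 and 0.58, and Gins2 -1.52 (lower in 5 of 5 libraries).

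In the niche populations the members were sparse, with 890 UMIs for all 35 in the 18 libraries together, of which Birc5 gave 137 (15.4%). Their summed share was 0.083% ± 0.0205 in MSC of WT and 0.153% ± 0.0331 in MSC of Wnt5a, 0.165% ± 0.0135 and 0.241% ± 0.0527 in OBC, and 0.0807% ± 0.0612 and 0.0844% ± 0.0260 in EC (SD, n = 3 each). In MSC and OBC every Wnt5a library was above every WT library, and in EC they overlapped. Of single tested genes, 13% in MSC and 7.19% in OBC were so after TMM scaling. That is no background rate for an unscaled sum of 35 genes. These sums rest on 17 to 85 UMIs per library in MSC and OBC. Exact 95% intervals overlapped between genotypes for some pairs of libraries and not for others. They were apart for MSC of WT replicate 1 (0.0434% to 0.0896%) and MSC of Wnt5a replicate 5 (0.141% to 0.218%). They were also apart for OBC of WT replicate 8 (0.113% to 0.206%) and OBC of Wnt5a replicate 11 (0.226% to 0.394%). Among overlapping pairs, MSC of Wnt5a replicate 4 spanned 0.0729% to 0.173% and MSC of WT replicate 2 0.0743% to 0.143%. OBC of Wnt5a replicate 12 spanned 0.136% to 0.295% and OBC of WT replicate 7 0.132% to 0.240%. Without Birc5 the shares were 0.0785% ± 0.0198 and 0.129% ± 0.0251 in MSC, and 0.156% ± 0.0114 and 0.187% ± 0.0635 in OBC. The separation in OBC was then lost, with Wnt5a replicate 12 at 0.131% and WT at 0.148% to 0.169%, while in MSC the highest WT library was at 0.0991% and the lowest Wnt5a library at 0.100%. It was lost in OBC also without the satellite, mitochondrial and immunoglobulin genes in the totals, with Wnt5a replicate 12 at 0.212% and WT replicate 7 at 0.218%. Mitochondrial genes took 11.96% to 17.1% of UMIs in OBC of WT and 3.57% to 8.47% in OBC of Wnt5a, and their part in the share was not tested. The sorted populations were not cleanly set apart by their markers. The 11 endothelial markers summed to 9852 to 13014 CPM in EC of WT and to nearly the same in MSC of WT (values below). The 11 mesenchymal markers summed to 4194 to 5358 CPM in MSC of WT and 1026 to 1289 CPM in EC of WT. In OBC of WT they were higher than in MSC, at 5923 to 9326 CPM.

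Only Birc5 passed the filter on low counts in the niche fit, so that it alone was tested. The filter asked for 3 libraries at the level of 10 UMIs in a library of median depth (241 CPM), and Birc5 reached it in 4 Wnt5a libraries, 3 of them OBC, and in 1 WT library. The Wnt5a libraries alone met the filter, and the WT libraries alone did not. Its p-values below are conditional on that and are not read as results. It had 2, 2 and 2 UMIs in MSC of WT and 3, 16 and 11 in MSC of Wnt5a. In OBC it had 3, 2 and 1 UMIs in WT and 8, 8 and 10 in Wnt5a. In EC it had 7, 30 and 9 UMIs in WT and 4, 10 and 9 in Wnt5a. Scaled to depth, Birc5 was higher in every Wnt5a library than in every WT library of MSC and of OBC, as 13% and 7.19% of all tested genes were, and overlapped in EC, where 5.64% of genes had all Wnt5a libraries above WT.

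As CPM, Birc5 was at 42.7 ± 6.11 in MSC of WT and 244 ± 106 in MSC of Wnt5a (SD, n = 3 each), a log2 fold change of 2.54 (SE 0.70, adjusted p = 0.0568 by edgeR). In OBC it was at 106 ± 31.0 and 581 ± 146 CPM (SD, n = 3 each), a log2 fold change of 2.40 (SE 0.72, adjusted p = 0.108 by edgeR). In EC it was at 168 ± 169 and 141 ± 57.0 CPM (SD, n = 3 each), a log2 fold change of -0.37 (SE 0.55, adjusted p = 0.895 by edgeR). Neither OBC, MSC nor EC passed alone, where 1%, 0.455% and 0.364% of the 1099 genes tested did. The ratio of summed UMIs was 5.81 in MSC (exact 95% interval 2.38 to 17.1), 5.86 in OBC (2.36 to 17.4) and 0.813 in EC (0.470 to 1.37), where the intervals cover counting error only.

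Averaged over the 3 populations, the log2 fold change of Birc5 was 1.52 (SE 0.39), with an adjusted p of 0.0200 by edgeR. Of the genes tested, 2.18% passed and were higher in Wnt5a. Since the Wnt5a libraries alone met the filter, this call is not given as a result or as evidence of a difference. The call was lost without Wnt5a MSC replicate 5 (1.40, adjusted p = 0.0628) and with no filter on low counts (1.46, adjusted p = 0.125). In EC alone the fold was below 1, and the interaction of genotype with population had an adjusted p = 0.174 by edgeR, so that the difference between populations did not pass. Each population against the mean of the other populations gave Birc5 log2 fold changes of -0.21 for EC, 1.02 for OBC and -0.81 for MSC, none past the test (adjusted p = 0.702, 0.0766 and 0.292 by edgeR), where 39.8%, 46% and 6.82% of genes passed. Without WT EC replicate 14, which held 30 Birc5 UMIs, the log2 fold change was 0.77 in EC, 2.51 in MSC and 1.89 on average. That replicate was the only WT library at the filter limit. Birc5 tests in that setting are likewise not given as results.

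**Figure D4:**
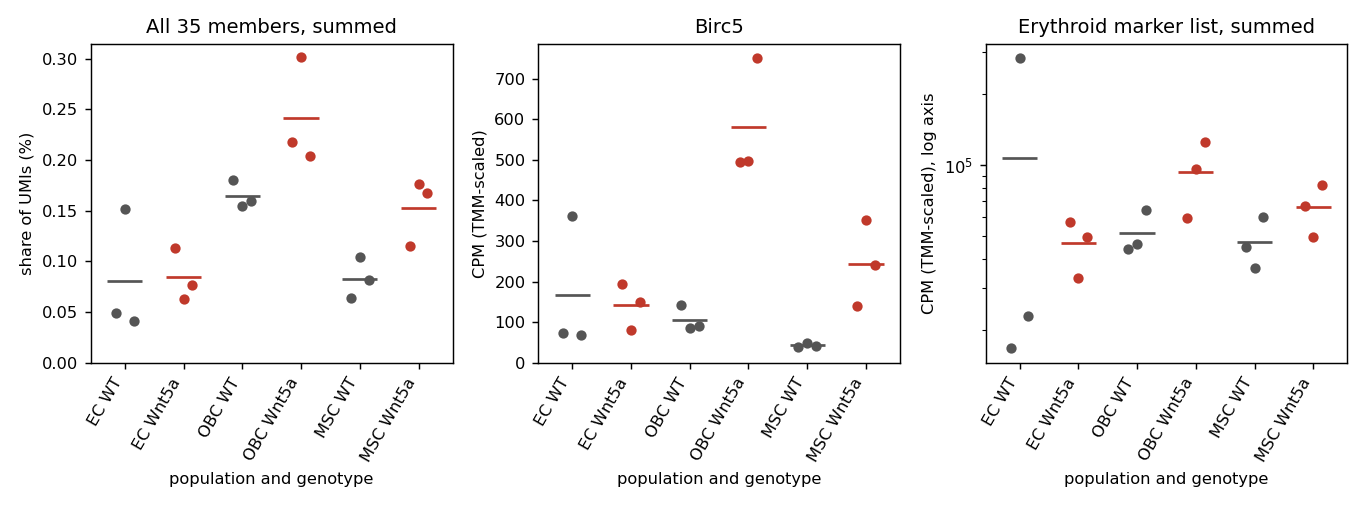
Summed share of the 35 members, Birc5 level and summed erythroid markers in each of the 18 niche libraries, grey for WT and red for Wnt5a, with a line at each group mean. Birc5 is higher in all 3 Wnt5a libraries of OBC and of MSC, and the WT EC library with the highest Birc5 level is also the one at 281776 CPM of erythroid markers.

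Markers of blood cells also differed between these libraries. The 10 erythroid markers, all listed in the table, summed to 281776 CPM in WT EC replicate 14 and to 16745 and 23040 CPM in the other WT EC libraries. They summed to 43849 to 64512 CPM in OBC of WT and 59731 to 125357 CPM in OBC of Wnt5a, and to 36701 to 60403 CPM and 49560 to 81871 CPM in MSC. The neutrophil and monocyte list, with 10 of 11 genes in the table, summed to 3485 to 6044 CPM in OBC of WT and 5701 to 10773 CPM in OBC of Wnt5a, and to 1017 to 1299 CPM and 2235 to 3841 CPM in MSC. In EC the same list summed to 355 to 519 CPM in WT and 1374 to 2397 CPM in Wnt5a. Markers of the niche cells moved as well: the 11 endothelial markers summed to 11423 to 12383 CPM in MSC of WT and 6716 to 7961 CPM in MSC of Wnt5a, and the 11 osteoblastic markers to 6196 to 22419 CPM in OBC of WT and 3301 to 6788 CPM in OBC of Wnt5a. The part of blood cells, of niche cell makeup and of the mitochondrial share in the Birc5 levels was not tested.

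The other 34 members had between 2 and 98 UMIs over the 18 libraries. Top2a had 15 UMIs in MSC of WT and 24 in MSC of Wnt5a, 8 and 15 in OBC, and 20 and 16 in EC. Mki67 had 4 and 11, 8 and 4, and 19 and 11 UMIs in the same order. Incenp had 4 and 12, 5 and 8, and 7 and 6 UMIs, and Cenpa 12 and 8, 9 and 4, and 28 and 8. Arhgap11a, the member farthest apart in LSK, had 6 UMIs in all, 5 of them in OBC of Wnt5a, and Ect2 had 3, too few for a comparison at this depth.

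Racgap1 had 22 UMIs in OBC of WT and 5 in OBC of Wnt5a, 12 and 10 in MSC, and 15 and 6 in EC. When the limit on low counts had to be met in only 2 libraries, Racgap1 could be tested as well, but it reached that limit in 2 WT libraries of OBC and in 0 of 9 Wnt5a libraries, so that its tests are not given as results.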

How the data were processed

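RNA was measured in 11 LSK libraries (Smart-seq2) and 18 niche libraries (UMI-seq), sorted by flow cytometry, per the labels' protocols. The deposited tables hold raw read counts (LSK) and UMI counts (niche) per Ensembl gene; STAR, featureCounts and the mm10 (GRCm38) build are named without versions per the submitters' processing notes. The annotation release, UMI collapsing and strand use are not stated there; the exons of 9 members overlap another annotated gene, so reads there may be shared (Ccna2, Plk1, Cdc20, Cdca8, Top2a, Kif4, Nusap1, Kif20a and Prc1). A further 28 spike-in entries of the niche table stayed out of totals. Symbols were found for 37607 of 38924 LSK identifiers and 17973 of 18194 niche identifiers.

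Differences were tested per table by the robust quasi-likelihood method of edgeR 4.0.16 (R 4.3.3) after TMM scaling and filterByExpr (10 counts, 15 in total), and p-values were adjusted over all genes tested with a threshold of 0.05. The niche fit held 6 group means. Standard errors are the log2 fold change divided by the root of the F statistic. Alternatives were RLE scaling, no filter, DESeq2 1.42.0, limma voom 3.58.1, libraries left out, and gene classes removed; a filter met in 2 niche libraries was added after seeing the data. Satellite-like genes were 12 genes whose transcripts share at least 0.5 of their 20-base words with known satellite transcripts. Scripts were tested on simulated counts.

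The members and lists were chosen with earlier results of these data known. Members named in full are the 5 with the smallest p of each sign in LSK, with Mki67, Top2a, Cdk1, Ccnb1, Plk1, Aurka, Aurkb and Birc5; from each related list the 3 genes with the smallest p are named. Marker lists of 9 cell types were summed. T and NK, megakaryocyte, endothelial, osteoblastic and mesenchymal lists summed to at most 607 CPM in any LSK library, and the neutrophil and erythroid lists to at most 577 and 2092 CPM. In the niche, T and NK markers reached at most 61.9 CPM, megakaryocyte markers 422 CPM, B and plasma cell markers 931 CPM, LSK markers 2697 CPM, osteoblastic markers 22419 CPM and mesenchymal markers 9326 CPM. Reads of Smart-seq2 are not independent molecules, so floors (3 counts) cover counting error only.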

Additional observations from a re-analysis of the deposited data

Results flagged for a closer look

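A test for values far from the rest of a group was made 72 times, for the members and their summed share in groups of 5 or 6 LSK libraries, and chance flags about 1 in 20 such groups; 2 were flagged. Cdca8 in Wnt5a replicate 3 stood at 113 CPM (112.563), with the nearest library of the group at 66.6 CPM. Kif20a in WT replicate 4 stood at 31.9 CPM, with the nearest at 3.80 CPM.

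The interaction of genotype with population for Birc5 in EC, OBC and MSC had an unadjusted p of 0.0019 and an adjusted p of 0.174 by edgeR, and did not pass over all genes. The Wnt5a libraries alone met the filter for Birc5, so this p is not read as a result. The log2 fold changes were -0.37, 2.40 and 2.54 in that order, and that in EC was 0.77 without WT EC replicate 14.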

How the results depend on the processing

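No paired analysis was possible because no replicate number occurs in more than 1 niche group and the LSK labels give no pairs. In LSK, 0 members passed with RLE scaling, limma voom and without the satellite, mitochondrial and immunoglobulin genes, 2 with no filter, 2 with DESeq2 and 4 with the 4-digit libraries; leaving out each library gave 0 to 5, the 5 without Wnt5a replicate 5. All genes past the test numbered 3, and 343 with no filter, 679 with DESeq2, 0 with limma voom (2871 at an unadjusted p under 0.05), 1 without the gene classes, 882 with the 4-digit libraries and 0 to 1114 with each library left out. The cause of these differences was not tested. The members' median log2 fold change was 0.21 to 0.40 over the 17 alternatives.

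With the 4-digit libraries the sign turned for Ndc80 (0.027), Nuf2 (0.052), Mki67 (0.13) and Prc1 (0.0068). With each library left out, values spanned 0 for Bub1 (-0.27 to 0.039), Ttk (-0.0038 to 0.29), Cdca8 (-0.093 to 0.24), Cenpa (-0.10 to 0.071), Nuf2 (-0.17 to 0.26), Mki67 (-0.22 to 0.044) and Nusap1 (-0.067 to 0.20).

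In the niche, the Birc5 difference ran from -0.66 to 0.77 in EC with each library left out, and from -0.75 to 0.031 for EC against the other populations, which was 0.18 with no filter. The count of members past the averaged test fell from 1 to 0 with no filter and ran from 0 to 1 with each library left out. In MSC it also ran from 0 to 1, with the call made without WT EC replicate 14. Birc5 then entered through Wnt5a libraries alone, and in the main fit these alone met the filter, so neither call is given as a result. For EC against the others the count of members was 0, and 1 with the limit met in 2 libraries, where 513 of 1348 genes passed. For OBC against the others it was 0 and 1, where 577 of 1348 genes passed. With a library left out the counts were 1 to 2 for EC and 0 to 2 for OBC. In the main fit 39.8% and 46% of all genes passed these comparisons. Most of the calls were of Racgap1, whose tests are not given as results. A group of 2 lowers the number of libraries in which a gene must reach the limit, so Racgap1, Top2a and Incenp are then tested (Racgap1 through 2 WT libraries of OBC under the limit met in 2), and the lone pair is assumed to vary like the other groups. DESeq2 gave no adjusted p for Birc5 in MSC and in the average. Averaged Birc5 was 1.46 (adjusted p = 0.125) with no filter, and 1.38 to 1.89 with each library left out. The members' share in OBC of WT was 0.195% without the gene classes. At 10635 to 117989 UMIs, 34 of 35 members could not be tested in the niche.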
